A study of Drosophila melanogaster with 39 samples.

Results

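The proteasome subunit genes of Drosophila melanogaster were followed through 39 two-colour arrays of leg and wing imaginal discs. The genes were chosen by name alone, as all genes whose symbol begins with Prosalpha, Prosbeta, Rpn or Rpt. RefSeq lists 48 such genes, and 46 of them had at least 1 probe, with 61 probes in all, out of 11454 named genes and 16362 gene probes. Of the 46 genes, 32 encode the standard subunits found in every tissue and 14 are paralogs whose symbols add a T or an R, some with a number after it, most of them known from the male germline. The 32 standard genes are spread over chromosome arms 2L (4 genes), 2R (10), 3L (5), 3R (9) and X (4).

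The proteasome is the large protease that destroys proteins tagged with ubiquitin. Its barrel-shaped core particle is built from outer rings of alpha subunits, which gate the entry, and inner rings of beta subunits, which hold the cutting sites. A regulatory particle caps the barrel: its ring of Rpt ATPases unfolds the substrate, the rest of the base binds the ubiquitin tag and the lid removes it. The ATPase ring is counted apart here, and base stands for the non-ATPase genes Rpn1, Rpn2, Rpn10 and Rpn13. In flies as in mammals the subunit genes are known to be induced together when proteasome activity is short, through a transcription factor of the Nrf family encoded by cnc.

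The study followed leg discs in which some cells switch to a wing fate when the signalling protein Wingless (Wg) is expressed throughout the disc, a switch called transdetermination. Every array compared 2 amplified RNA samples, and a value is a log2 ratio centred on the median of its array, so a value of 1 stands for a doubling against the median gene and not for an absolute amount. Because the samples are pieces of tissue, fewer cells of a type and less RNA per cell cannot be told apart. The labels call the arrays of a category independent. Except where arrays were fitted alone, the p-values use a spread estimated for each probe over the arrays of all categories together. They do not measure the spread among the arrays of a comparison by itself, so arrays that lie close together can still give a large p-value.

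Wild-type discs came from OregonR male wandering larvae at the end of larval life. First leg discs were compared on 4 arrays with a reference, a pool of amplified RNA from the leg discs of all 3 segments of males and females, and wing discs were compared with a leg disc on 9 arrays, of which each leg segment had 3. Wg-expressing larvae were y,w and carried hs-flp, a wg+ transgene that the flippase switches on under the promoter labelled Actinc5 by removing an FRT-flanked y+ cassette, and vgBE-GAL4 driving UAS-GFP. They were heat-shocked as young larvae, at 60 and 72 h after egg deposition, and their discs were taken 3 days later. Over 90 percent of their disc cells made Wg according to the labels, and their metamorphosis was delayed. Whole first leg discs of these larvae were compared with the reference on 6 arrays. Transdetermining (TD) cells were cut out by the GFP of the vg boundary enhancer. They were compared with the remaining dorsal cells of such discs, D(wg), on 3 arrays, with the ventral cells, V(wg), on 5 arrays and with wild-type dorsal cells, D(wt), on 2 arrays. D(wg) was compared with V(wg) on 3 arrays, and D(wt) with V(wt) on 3 arrays. Pieces of 4 to 8 discs were pooled in the comparisons within Wg-expressing discs, and the wild-type dorsal and ventral pieces were separated only approximately. Regenerating tissue was fragments of the second leg disc cultured for 3 to 5 days in the abdomen of adult females, compared with the reference on 4 arrays. The heat shock is described only for the Wg-expressing larvae, so Wg, heat shock and stock cannot be told apart wherever TD or Wg-expressing tissue was set against wild-type tissue, fragments or the reference.

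An array held a value for 2969 to 14650 of the gene probes. The regenerating arrays held 4076, 10065, 4862 and 2969, which is few on all of them but array 2. Among the disc markers that were measured, 3 of 4 wing genes were higher and 3 of 3 leg genes lower in wing than in leg discs. The gene vg, whose enhancer marked the TD cells, had log2 ratios of 5.0 and 2.51 on the 2 arrays that measured it in TD against D(wg) cells, and of 3.24 to 5.17 on 4 arrays of TD against V(wg) cells. Array 2 of the first comparison and array 1 of the second held no value for vg. The same marker went against the labels on both arrays of TD against D(wt) cells, at -1.73 and -1.77. The direction of every value from those 2 arrays therefore rests on a label that this marker does not bear out. The fitted ratio of vg there, -1.40, did not pass the test. Nor did the leg genes lbl (-0.87), Dll (-0.55) and dac (0.21) or the wing genes ap (-0.92) and nub (-0.05). Against D(wg) cells lbl and Dll were lower, at -1.19 and -1.03, and dac (0.23) and H15 (-0.53) did not pass. The wing genes ap, sd and nub did not pass the test in TD against D(wg) or V(wg) cells. Against D(wg) they were at -0.36, 0.19 and 0.09, and against V(wg) at -0.05, 0.14 and -0.03. Of these, nub was not higher in wing than in leg discs either. Larval fat body markers were lower in the wild-type first leg discs than in the reference for 4 of 4 measured genes, with a median log2 ratio of -3.16, and none of 5 measured genes passed the test in the Wg-expressing discs. The slide series were not balanced between categories: the TD, D and V arrays and most Wg-expressing arrays were on series 7, and the regenerating arrays and most wild-type leg arrays on series 5.

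The standard subunits were among the most widely measured genes on these arrays. Each of the 32 had a value on at least 35 arrays, and 28 of them (87.5%) had one on all 39, whereas 34.3% of all genes reached 35 arrays and 14.7% all 39. The genes of the cytosolic ribosomal proteins reached 35 arrays in 90.0% of cases. The 14 paralogs had a median of 7 arrays and at most 23, for Prosbeta5R1, and Prosalpha3T and Prosbeta4R1 had no value on any array. A missing value may be a spot the authors filtered out, so it is not evidence that a transcript was absent.

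**Figure D1:**
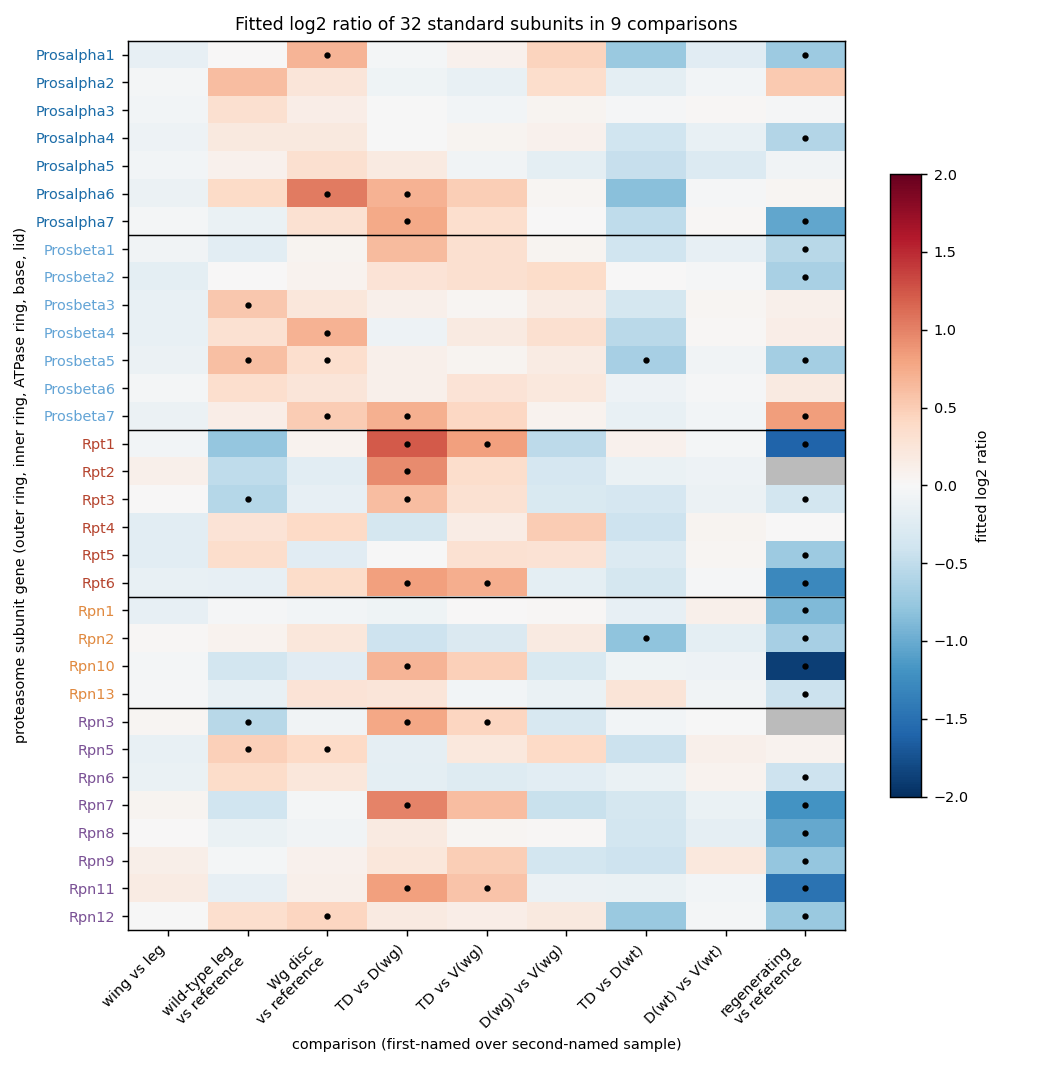
Fitted log2 ratio (colour) of the 32 standard subunits (rows, by subassembly) in 9 comparisons (columns), with a dot where the gene passed the test and grey where it was not tested. The column of regenerating fragments is blue for most of the regulatory particle, down to -1.89 for Rpn10, and the column of TD against D(wg) cells is red for Rpt1, Rpn7, Rpt2 and Rpn11.

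The clearest difference was in regenerating leg fragments, where most of the regulatory particle was lower than in the pooled leg reference. Of 30 subunits that could be tested, 20 were lower and 1 was higher, and 25.9% of the 3235 genes tested in this comparison were lower and 15.9% higher. The regulatory particle held 14 of the 20, out of 16 tested, and the core particle 6 out of 14. The median log2 ratio was -0.62 over the 30 subunits, -0.75 over the regulatory particle, -0.05 over the core particle and -0.08 over all genes tested. Rpt2 and Rpn3 had a value on only 2 of the 4 arrays and were not tested.

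Within the base, counted without its ATPases, all 4 genes were lower. Rpn10, a receptor that holds the ubiquitin chain, had log2 ratios of -1.20, -2.14, -2.96 and -1.25 on the 4 regenerating arrays. Its 4 values all lay below those of the wild-type first leg discs against the same reference, which were -0.23, -1.10, -0.36 and 0.24. The fitted log2 ratio of Rpn10 was -1.89 ± 0.21 (SE), a level 3.7-fold lower than in the reference (limma, adjusted p = 5.03e-08). Rpn1, which docks ubiquitin carriers, gave -0.66, -1.28, -0.55 and -1.06, all 4 below 0, and a fitted ratio of -0.89 ± 0.19 (adjusted p = 0.000385). The scaffold gene Rpn2 (-0.66, adjusted p = 0.000274) and the ubiquitin receptor gene Rpn13 (-0.42, adjusted p = 0.00874) were lower by less.

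In the lid, 6 of 7 tested genes were lower. Rpn11, the enzyme that cuts the ubiquitin chain off the substrate, gave -1.16, -2.0, -1.37 and -1.41, a narrower spread than that of Rpn10, for a level 2.8-fold lower (fitted -1.48 ± 0.17, adjusted p = 1.35e-07). Its wild-type leg values were -0.01, -0.67, 0.07 and 0.13, with no overlap. Rpn8, the partner of Rpn11 that lacks its own catalytic site, was also lower (-1.03 ± 0.13, adjusted p = 6.57e-07). The structural lid gene Rpn7 had 3 values, -0.01, -1.55 and -2.02, and its call (-1.20, adjusted p = 0.00123) was lost without array 3. Rpn5 was the lid gene that did not pass, at 0.08.

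In the ATPase ring, 4 of 5 tested genes were lower. Rpt6 gave -0.65, -1.66, -2.15 and -0.68, all below its wild-type leg values of 0.13, -0.20, 0.01 and -0.36 (fitted -1.28 ± 0.19, adjusted p = 4.9e-06). Rpt1 gave -0.45, -1.84 and -2.50 on the 3 arrays that measured it, for a fitted ratio of -1.61 ± 0.35 (adjusted p = 0.000652). Those values overlapped the wild-type ones, -0.46, -1.98, -0.53 and -0.17, and the call was lost without regenerating array 3. Rpt5 (-0.72) and Rpt3 (-0.37) were lower too, and Rpt4 did not pass, at 0.01 ± 0.19.

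The core particle was divided. Prosalpha7, an outer ring subunit, gave -0.39, -1.54, -1.31 and -0.93, all below its wild-type leg values, and a fitted ratio of -1.04 ± 0.14 (adjusted p = 1.45e-06). Prosalpha1 (-0.73) and Prosalpha4 (-0.58) were lower as well, and the other 4 outer ring genes did not pass, with ratios from -0.07 to 0.52. Of the subunits with a cutting site, Prosbeta5, the chymotrypsin-like one, gave -1.31, -0.27, -0.85 and -0.28 (fitted -0.68, adjusted p = 0.000602). Prosbeta2, the trypsin-like subunit, gave -0.82, -0.78, -0.10 and -0.89, with array 3 apart from the other 3 (fitted -0.65, adjusted p = 0.00163). Prosbeta1, the caspase-like subunit, gave -1.21, -1.52, 0.05 and 0.43, so 2 arrays were low and 2 were not, and its adjusted p of 0.0496 lay next to the threshold. The 2 low arrays had 1 dye orientation and arrays 3 and 4 the other. The part of the dye in these values was not tested beyond the dye term of the fit. Prosbeta7, a non-catalytic inner ring subunit, was the 1 gene called higher, at 0.84, and its values of 0.46, -0.14, 2.74 and 0.31 show that array 3 carried that call.

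**Figure D2:**
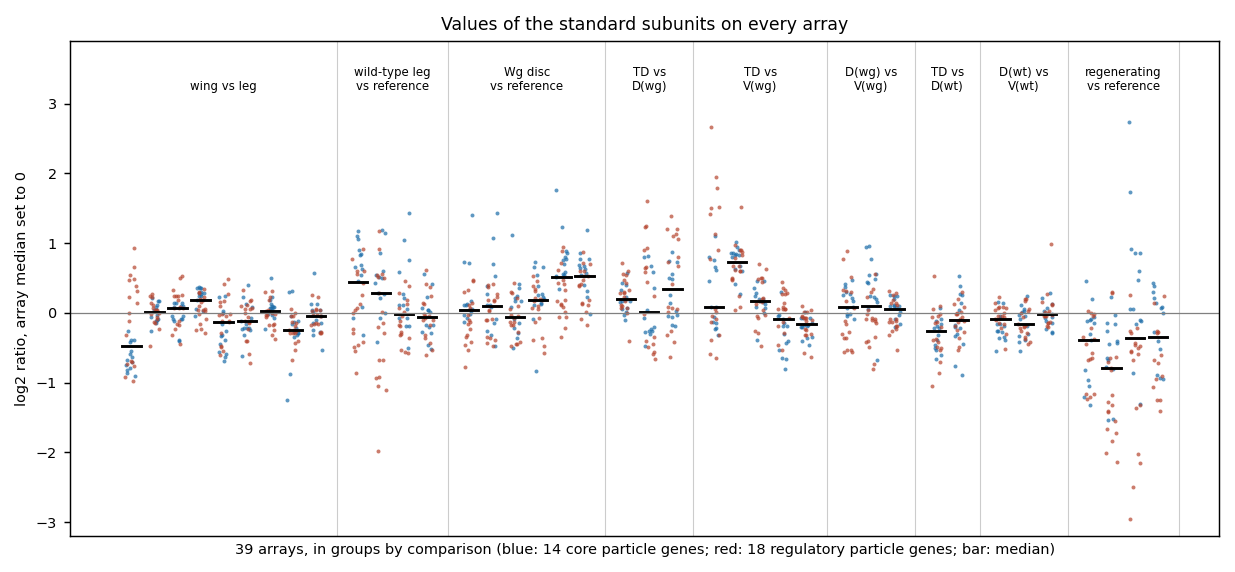
Log2 ratio of the 32 standard subunits on each of the 39 arrays (1 column of points per array, grouped by comparison), with blue points for core and red points for regulatory particle genes and a bar for the median of each array. The medians of the 4 regenerating arrays lie between -0.79 and -0.35, with the red points lowest.

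Set directly against wild-type first leg discs, through the shared reference, the fragments were lower in 14 of 30 subunits and higher in 0, while 14.7% of 3201 genes were lower and 6.06% higher. The difference in log2 ratio was -1.52 for Rpn10 (adjusted p = 0.000671), -1.32 for Rpn11 (adjusted p = 0.000413), -1.29 for Prosbeta5 (adjusted p = 0.000119) and -1.13 for Rpt6 (adjusted p = 0.00402). The fragments came from the second leg disc and the wild-type discs from the first, so segment, culture and injury cannot be told apart here. Against Wg-expressing discs the fragments were lower in 19 of 30 subunits, and none was higher, where the discs exceeded the fragments in 19.2% of 3223 genes and lay below them in 8.78%. The Wg-expressing discs exceeded the fragments by 1.66 in Rpn10, 1.66 in Rpt6, 1.59 in Rpn11 and 1.42 in Prosalpha1. The base differed in 4 of 4 genes and the lid in 6 of 7 in that contrast. All 3 of these comparisons use the regenerating arrays, and the slide series of the Wg-expressing discs differed from theirs, so those results are not independent and series and tissue cannot be told apart.

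The decrease in the fragments had a size that depended on how arrays were scaled. With the arrays scaled to equal spread, 10 subunits were called in place of 21, and the median over subunits was -0.40; the contrast with wild-type discs then called 3 and that with Wg-expressing discs 12. Fitted alone without a dye term, the regenerating arrays called 6. Without any 1 of the 4 arrays, 15 to 22 subunits were called. The calls of Rpn10, Rpn11, Rpt6 and Prosalpha7 held without each array in turn, with log2 ratios of -2.12 to -1.52 for Rpn10 and -1.62 to -1.33 for Rpn11.

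Heat shock and chaperone genes were also lower in the fragments. Of 16 tested heat shock and chaperone genes, 14 were lower, with a median of -1.16: Hsp83, the fly Hsp90, was at -3.05, the co-chaperone gene DnaJ-1 at -2.94 and the chaperonin subunit gene CCT1 at -1.12. Among other genes of protein quality control the share that was lower was close to the 25.9% of all genes. Of 20 tested genes of ubiquitin and its enzymes, 5 were lower, among them CSN5 (-0.83), which acts on cullin ligases, and Uba1 (-0.78), the ubiquitin-activating enzyme. Of 8 tested proteasome partners, REG, a proteasome activator, was lower at -0.46 and TER94, the unfoldase that extracts substrates, at -0.61. The genes of cytosolic ribosomal proteins were divided, with 15 higher and 11 lower of 82, and those of mitochondrial ribosomal proteins gave 4 higher and 10 lower of 47 with a median of -0.01. Of 7 fat body markers with a probe only Adh could be tested in the fragments, at -1.60, and it did not pass. Of 3 tested muscle and myoblast markers Mlc2 was lower, at -1.99, while zfh1 (0.36) and twi (0.06) did not pass, and no haemocyte or male germline marker could be tested. The part of other cell types in these differences was not tested.

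**Figure D3:**
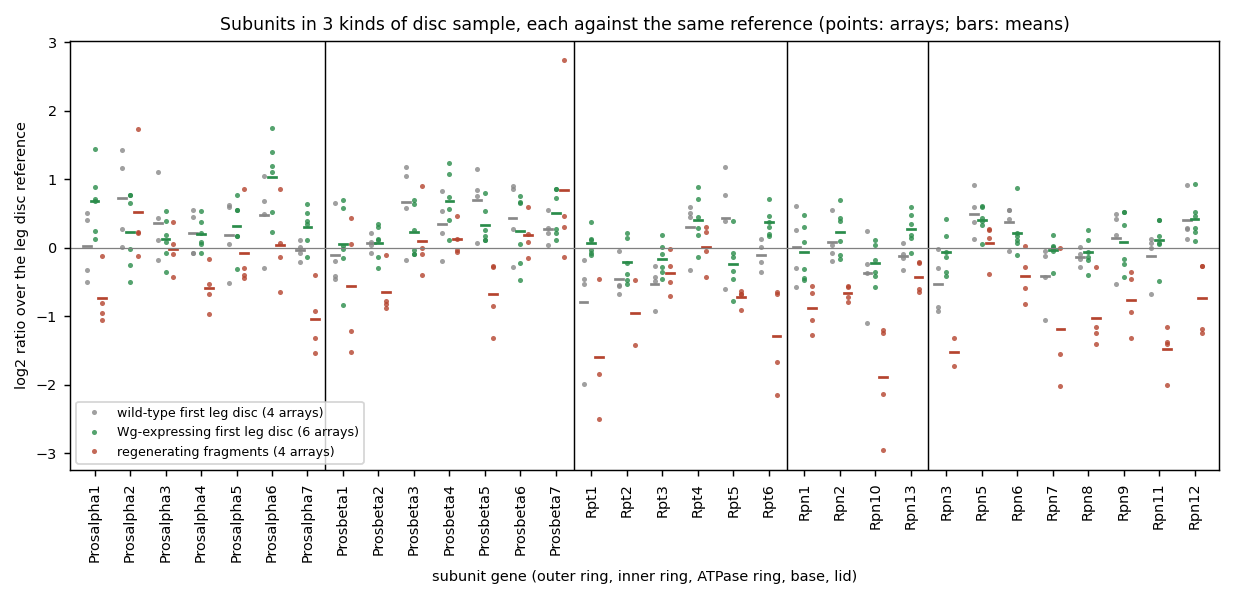
Log2 ratio against the leg reference of each standard subunit (horizontal axis) in wild-type first leg discs, Wg-expressing first leg discs and regenerating fragments, with points for arrays and short bars for their means. The regenerating points of Rpn10 and Rpn11 lie below those of both other kinds of sample, and those of Prosbeta7 are spread from -0.14 to 2.74.

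In transdetermining cells several genes of the regulatory particle were higher. Against D(wg), the dorsal cells of these discs without GFP, 11 of 36 tested subunit genes were higher and 0 lower, while 10.8% of 7077 genes were higher and 7.86% lower. All 11 were standard subunits, 8 of 18 in the regulatory particle and 3 of 14 in the core. The ATPase ring held 4 of its 6, the lid 3 of 8 and the base 1 of 4. The median log2 ratio was 0.23 over the regulatory particle, 0.10 over the core particle and 0.05 over all genes tested.

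Rpt1 had the largest fitted ratio, 1.22 ± 0.35 or 2.34-fold (adjusted p = 0.0168), from values of 0.71, 1.6 and 1.39 on the 3 arrays. Rpt2, whose tail helps to open the gate of the core in yeast, gave 0.43, 1.24 and 1.06 (fitted 0.95 ± 0.22, adjusted p = 0.00531). Rpt6 gave 0.59, 0.66 and 1.13 (fitted 0.83 ± 0.22, adjusted p = 0.0109). All 3 arrays were above 0 for these ATPase genes, and array 1 gave the lowest value of each. Rpt3 was higher by 0.62, while Rpt4 (-0.36) and Rpt5 (0.00) did not pass.

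In the lid, Rpn7 gave 0.55, 1.24 and 1.21 (fitted 0.99 ± 0.28, adjusted p = 0.0151). The deubiquitinase gene Rpn11 gave 0.30, 0.90 and 1.20 (fitted 0.83 ± 0.20, adjusted p = 0.00565), and the structural gene Rpn3 gave 0.56, 0.59 and 1.10 (fitted 0.77). All of these were above 0 on every array, again with array 1 lowest. In the base, the ubiquitin receptor gene Rpn10 gave 0.32, 0.93 and 0.80 (fitted 0.68, adjusted p = 0.0462), and Rpn1 did not pass, with values of 0.29, -0.65 and 0.06 on both sides of 0. Rpn2 was below 0 on all 3 arrays, at -0.41, -0.45 and -0.42, and did not pass (adjusted p = 0.0618).

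In the core, Prosalpha7 gave 0.40, 0.81 and 0.87 and had the smallest adjusted p of the subunits (fitted 0.75 ± 0.16, adjusted p = 0.00338). Prosbeta7 (0.72) and Prosalpha6 (0.69) were also higher. The subunits with cutting sites did not pass: Prosbeta1 gave 0.43, 0.67 and 0.55, Prosbeta2 gave 0.23, 0.35 and 0.14, and Prosbeta5 gave -0.10, -0.30 and 0.49. The 3 values of Prosbeta1 and of Prosbeta2 were above 0, and those of Prosbeta5 fell on both sides.

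With 3 arrays these calls rested mainly on arrays 2 and 3. The count of 11 was 9 without array 1, 1 without array 2 and 3 without array 3, and it was 7 when these arrays were fitted alone without a dye term. Array 2 held no value for the marker vg. No direction changed among Rpt1, Rpt2, Rpt6, Rpn7, Rpn10, Rpn11 and Prosalpha7, the called genes followed through these settings. The fitted ratio of Rpt1 stayed between 1.05 and 1.5 without each array. Rpt6 has 2 further probes, whose ratios in this comparison were 0.31 (adjusted p = 0.271) and 0.37 (adjusted p = 0.147) and did not pass.

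Against ventral cells, V(wg), 4 of 34 tested subunit genes were higher in TD cells and 0 lower, while 6.96% of 6850 genes were higher and 6.98% lower. The 4 were all in the regulatory particle. Whether 4 of 34 differs from the share of all genes was not tested. Both comparisons use TD cells, and whether they share RNA extracts is not stated, so they are not independent. Rpt6 gave 1.42, 0.97, 0.70, 0.45 and 0.01 on the 5 arrays (fitted 0.73 ± 0.17, adjusted p = 0.00426). Rpn11 gave 1.52, 0.50, 0.49, 0.32 and -0.08 (fitted 0.57, adjusted p = 0.0129). Rpt1 gave 2.67, 0.61, 0.50, 0.29 and 0.10 (fitted 0.83 ± 0.27, adjusted p = 0.0407), and Rpn3 gave 0.90, 0.67, 0.50, 0.05 and -0.05 (fitted 0.43, adjusted p = 0.0464).

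Array 1 was the highest for each of these 4 genes and array 5 the lowest, and array 2 was the next highest. The marker vg had no value on array 1. Arrays 1 and 2 had 1 dye orientation and arrays 3, 4 and 5 the other; the part of the dye in these values was not tested beyond the dye term of the fit. Fitted alone without that term, the 5 arrays called 0 subunits by limma. Without array 1 none of the subunits was called, and Rpt1 fell to 0.32 (adjusted p = 0.546); without array 2 or array 3 the count was 2, and without array 5 it was 9. Rpn10, at 1.13, 0.60, 0.45, 0.27 and -0.08, and Rpn7, at 1.95, 0.59, 0.21, 0.36 and 0.01, ordered the arrays in nearly the same way and did not pass (adjusted p = 0.0891 and 0.053). Prosalpha7 gave 0.76, 0.91, 0.16, -0.19 and -0.17, with 3 arrays above 0 and 2 below. Prosbeta1 (0.32), Prosbeta2 (0.32), Prosbeta5 (0.06) and Rpn1 (0.01) did not pass. The median was 0.20 over the 34 genes and -0.01 over all genes tested, and with the arrays centred on probes measured on every array the count was 8. The other 2 probes of Rpt6 gave 0.33 (adjusted p = 0.154) and 0.34 (adjusted p = 0.0998) and did not pass.

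**Figure D4:**
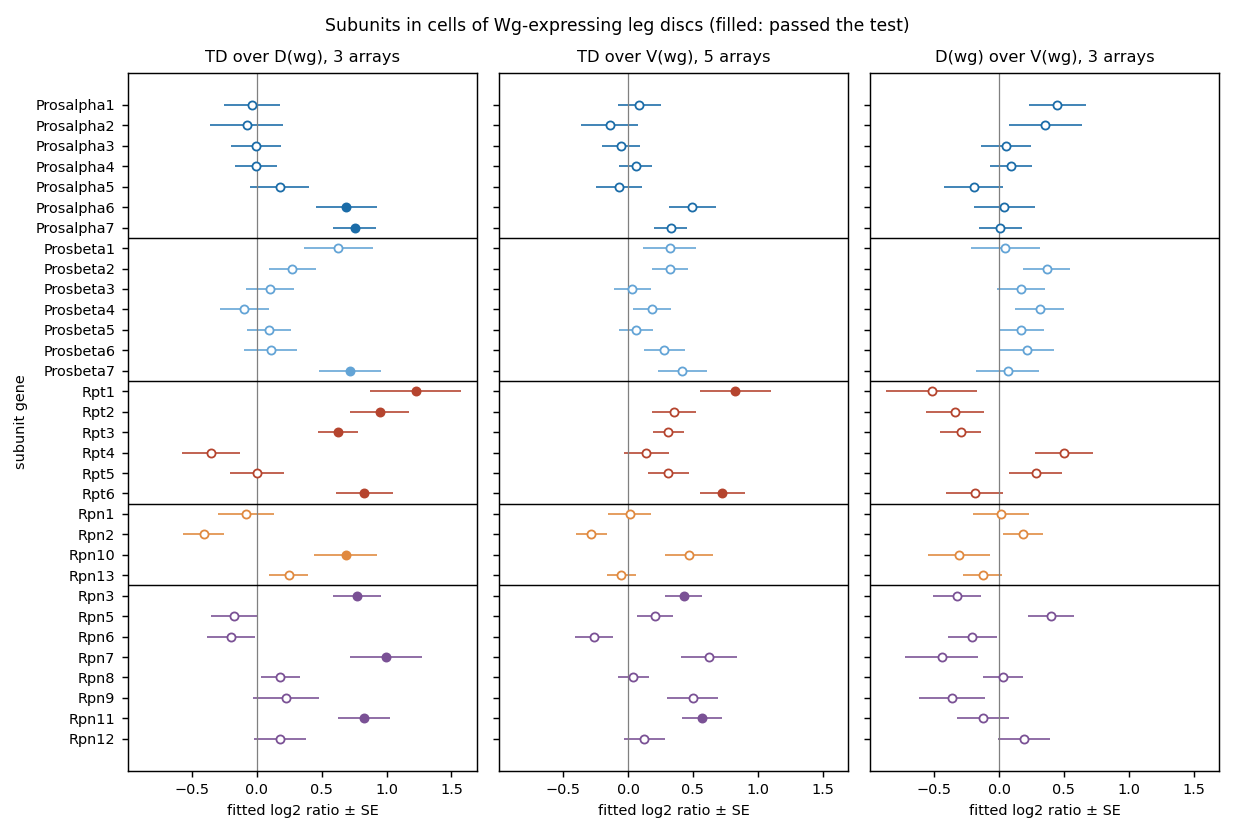
Fitted log2 ratio with its SE (horizontal axis) of each standard subunit (rows, by subassembly) in TD against D(wg), TD against V(wg) and D(wg) against V(wg) cells, with filled points for genes that passed the test. In the panel against V(wg) the filled points are Rpt1, Rpt6, Rpn3 and Rpn11, and no point is filled in the third panel.

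Neither wild-type nor Wg-expressing discs showed a dorsal-ventral difference in any subunit that passed the test. Between D(wg) and V(wg), 0 of 35 genes were called by limma, with 3 at an unadjusted p under 0.05, and 0.302% of 7296 genes were called. Rpt1 was below 0 on all 3 arrays, at -0.57, -0.48 and -0.53 (fitted -0.52 ± 0.35, adjusted p = 0.391), and Rpn10 at -0.53, -0.15 and -0.26. Between D(wt) and V(wt), limma called 0 of 32 genes, with 0 at an unadjusted p under 0.05 and 0.695% of 5902 genes called, and the fitted ratios lay between -0.27 and 0.21. The dorsal-ventral ratio itself differed between Wg-expressing and wild-type discs in 0 of 32 genes (limma, 1 at an unadjusted p under 0.05), with 0.0879% of 5688 genes called.

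On the 2 arrays labelled TD against D(wt), where vg goes against the label, no subunit gene was called higher. In the direction the labels give, 0 of 34 genes were higher and 2 were lower, while 3.98% of 6307 genes were higher and 5.55% lower, so the count of lower genes was close to that of genes in general. The scaffold gene Rpn2 was at -1.05 and -0.49 (fitted -0.81 ± 0.19, adjusted p = 0.00796) and Prosbeta5 at -0.51 and -0.44 (fitted -0.67, adjusted p = 0.0471). Rpt1 was at 0.10 and 0.02, Rpn10 at -0.05 and -0.13, Rpn11 at -0.02 and -0.09, Rpt6 at -0.14 and -0.36 and Rpn7 at -0.54 and -0.19. None of these 5 genes, all of them called against D(wg), lay above 0.10 on either array; whether the ratios to D(wt) and to D(wg) differ was not tested. Of the 32 standard subunits 29 had a fitted ratio below 0, with a median of -0.34 over all members tested. If the labelled direction of these arrays were wrong, each of these signs would turn, and so would those of the 2 calls.

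Both of these arrays had the same dye orientation, so their contrast rests on the dye term estimated from the other arrays. The dye coefficient was below 0 for 28 of the 32 standard subunits, with a median of -0.10 and a range of -0.38 to 0.02. Fitted alone without it, these arrays called 4 subunits, and without array 1 or array 2 the joint fit called 0 or 1. Fat body markers moved in the same comparison, with 2 of 3 tested genes called, Lsp1beta at 1.38 and Lsp2 at 0.84 in the labelled direction, and their part in the subunit values was not tested.

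In whole Wg-expressing leg discs some core particle genes were higher than in the reference. Of 39 tested genes 7 were higher and 0 lower, with 11% of 9212 genes higher and 22.4% called in either direction. Nothing particular to the subunits is read from this count, since the difference between the shares was not tested. The core particle held 5 of the 7, out of 14, and the regulatory particle 2 out of 18. Prosalpha6, an outer ring subunit, was the most changed, at 0.23 to 1.76 with a median of 1.15 over the 6 arrays, all above 0 (fitted 1.04 ± 0.17 or 2.05-fold, adjusted p = 4.31e-05). Prosbeta4, a structural inner ring subunit, ranged from 0.11 to 1.23 with a median of 0.65 (fitted 0.69, adjusted p = 0.000426), and Prosalpha1 from 0.13 to 1.44 with a median of 0.70 (fitted 0.68, adjusted p = 0.00186). For these 3 genes array 4 was the lowest, and the calls held without each array in turn.

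Smaller increases were called for Prosbeta7 (0.51, adjusted p = 0.0308), Prosbeta5 (0.33, adjusted p = 0.0482), and the lid genes Rpn12 (0.42, adjusted p = 0.0309) and Rpn5 (0.40, adjusted p = 0.0208). The count was 4 without array 1 or array 6 and 3 without array 5, and 7 on slide series 7 alone, which leaves out array 4. Prosalpha6 and Prosbeta7 were also among the genes called higher in TD against D(wg) cells. Other genes called there did not pass in the whole discs. Of these, Rpt6 was at 0.37, Prosalpha7 at 0.31, Rpn11 at 0.11, Rpt1 at 0.07, Rpn7 at -0.04 and Rpn10 at -0.23. Prosbeta2 (0.08), Prosbeta1 (0.05) and Rpn1 (-0.06) did not pass in the whole discs either. Markers of other cells moved in this comparison: of 7 tested muscle and myoblast markers Act57B (-2.20) and Him (-1.40) were lower, and of 3 tested male germline markers bam was higher, at 0.94. Their part in the subunit values was not tested.

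Wild-type first leg discs differed from the reference in 6 of 35 tested subunit genes, 4 higher and 2 lower. Of all genes tested 8.02% were higher and 10.1% lower, so the counts for the subunits were close to the background. Prosbeta5 gave 0.84, 1.15, 0.75 and 0.07 (fitted 0.61, adjusted p = 0.00787), Prosbeta3 gave 1.05, 1.18, 0.59 and -0.17 (fitted 0.53, adjusted p = 0.0252) and Rpn5 gave 0.60, 0.91, 0.12 and 0.37 (fitted 0.48, adjusted p = 0.0333). Array 4 was the lowest for Prosbeta5 and Prosbeta3. The ATPase gene Rpt3 was lower on every array, at -0.49, -0.93, -0.27 and -0.43 (fitted -0.58, adjusted p = 0.00615), and so was Rpn3, at -0.86, -0.92, -0.30 and -0.02 (fitted -0.56, adjusted p = 0.0207). The paralog Prosalpha6T had 3 values, 0.36, 0.15 and 0.38 (fitted 0.51, adjusted p = 0.0461). All of them came from arrays of the same dye orientation, and the fitted ratio, which includes the dye term, lay above each. Its call was lost without array 1, array 2 or array 3.

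The count depended on single arrays: it was 1 without array 1, 0 without array 2 and 7 without array 4, which leaves slide series 5 alone, and 2 with arrays scaled to equal spread. Fitted alone without a dye term the 4 arrays called 0 subunits by limma. Centred on probes measured on all arrays they called 5, of which 1 was higher and 4 lower, so the balance of directions turned with the centring. Of 8 tested muscle and myoblast markers Mhc (-3.82), Act57B (-2.12) and Mlc2 (-1.23) were lower in the wild-type discs, and their part and that of the fat body markers were not tested. Among the other subunits followed through all comparisons, Prosalpha7 (-0.13), Prosbeta1 (-0.22), Prosbeta2 (0.02), Rpt6 (-0.16), Rpn1 (-0.02), Rpn11 (-0.16), Rpn10 (-0.36), Rpn7 (-0.40) and Rpt1 (-0.78) did not pass. The difference between Wg-expressing and wild-type first leg discs was called by limma for 0 of 35 subunit genes, with 10 at an unadjusted p under 0.05, and 7.11% of 6213 genes were called. It was largest in size for Rpt1, at 0.84 ± 0.40, and Prosalpha1, at 0.68 ± 0.24 (adjusted p = 0.0879). In that contrast slide series and genotype cannot be told apart.

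In wing against leg discs of wild-type larvae no standard subunit passed the test. By limma 0 of 32 were called, with 0 at an unadjusted p under 0.05, and the fitted log2 ratios lay between -0.22 and 0.16, with 2.53% of 5251 genes higher in the wing and 1.98% lower. All 14 core particle genes were slightly below 0, with a median of -0.11. The panel followed here gave -0.03 for Prosalpha7, -0.07 for Prosbeta1, -0.19 for Prosbeta2, -0.12 for Prosbeta5, -0.05 for Rpt1, -0.14 for Rpt6, -0.17 for Rpn1, -0.03 for Rpn10, 0.16 for Rpn11 and 0.06 for Rpn7. The paralog Prosalpha4T2 was the only member called, higher in the wing disc at 0.36 ± 0.09 (adjusted p = 0.0396). It was measured on 6 of the 9 arrays, at 0.48, -0.02, 0.33, 0.32, 0.52 and 0.51, of which 5 were above 0. This call was lost without centring, with these arrays fitted alone without the dye term and on slide series 5 alone, and the gene could not be tested on series 6 alone or without any 1 of those 6 arrays. Compared with each other through the wing disc, the leg discs of the 3 segments differed in 0 of 33 subunit genes in each pairing by limma, with 0 at an unadjusted p under 0.05, and the share of genes called was 0.0173%, 0.0% and 0.0%.

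Some of the genes that were high in TD cells were those that were low in regenerating fragments. Of the 11 genes called in TD against D(wg) cells, 9 were tested in the fragments and 7 were lower there: Prosalpha7, Rpn7, Rpn10, Rpn11, Rpt1, Rpt3 and Rpt6. These 7 are 63.6% of the 11 and 35.0% of the 20 genes lower in the fragments. Since 20 of all 30 subunits tested in both comparisons were lower in the fragments, most of any such list would be found there. The comparisons share no sample according to their labels.

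The subunits were correlated with each other to very different degrees. Over the 39 arrays, which share probes, platform and in part the reference, the median correlation between pairs of the 32 standard subunits was 0.36, with 0.47 inside the core particle, 0.40 inside the regulatory particle and 0.30 between them. The most alike pairs were Rpn7 with Rpt1 (r = 0.94) and Rpn10 with Rpn11 (r = 0.92), and the least alike was Rpn5 with Rpt2 (r = -0.47). Rpt1, Rpt2, Rpt3, Rpn3, Rpn7, Rpn10 and Rpn11 were picked from among the most alike genes. They had a median of 0.85 among themselves and of 0.08 with the other subunits, a contrast that this choice fixes. Rpt6, left out of this list, was as close to some of them, with r of 0.85 with Rpt1 and 0.85 with Rpn10. With Rpt2 it had r of 0.625. Rpt1 had the widest spread over the arrays of all subunits, from -2.50 to 2.67 with an SD of 0.90, and Rpn13 the narrowest, with an SD of 0.30.

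**Figure D5:**
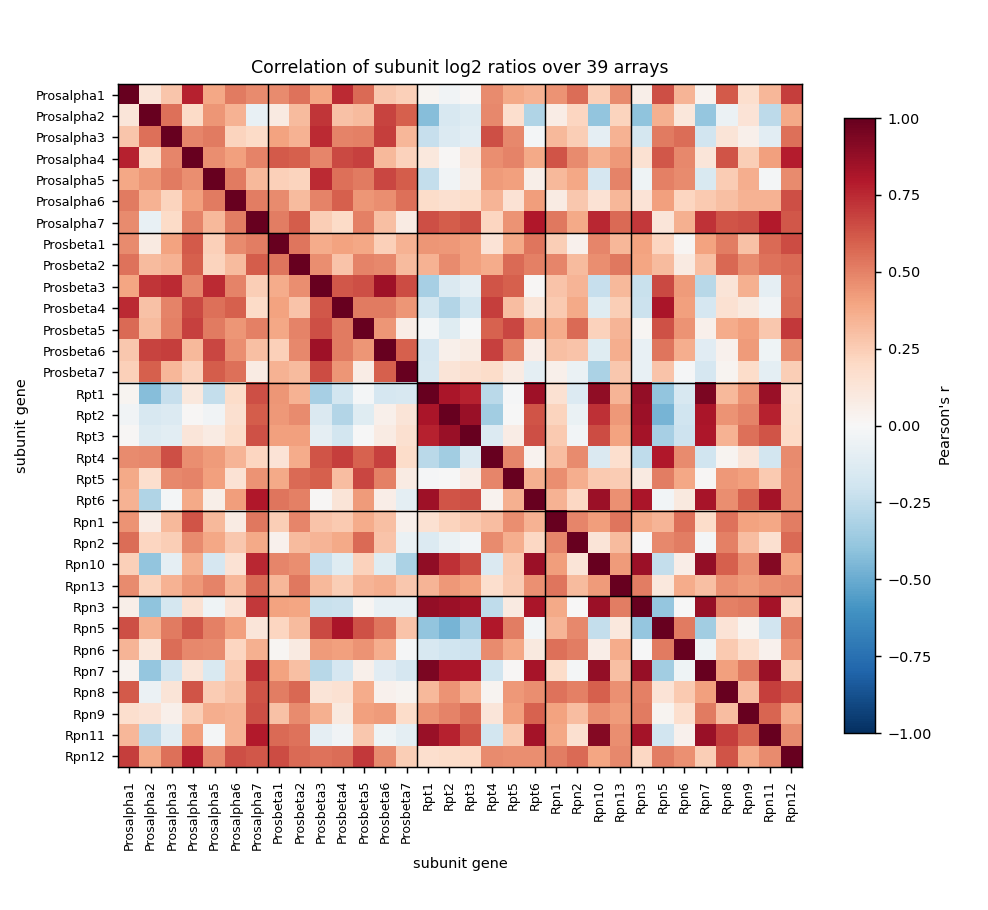
Pearson correlation (colour) between the log2 ratios of each pair of standard subunits over the 39 arrays, with lines between subassemblies. Rpt1, Rpt2, Rpt3, Rpn3, Rpn7, Rpn10 and Rpn11 are deep red with each other, up to 0.94, and pale or blue with many core particle genes.

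The medians of the core and of the regulatory particle were set beside those of 5 other gene lists, over the 39 arrays. The median ratio of the core particle had a correlation of 0.90 with that of mitochondrial ribosomal protein genes (rho = 0.89, and r = 0.86 without the 2 arrays farthest from the median), of 0.60 with that of ubiquitin and its enzymes, of 0.59 with that of cytosolic ribosomal proteins, of 0.03 with that of heat shock and chaperone genes and of 0.02 with that of proteasome partners. The median ratio of the regulatory particle had a correlation of 0.76 with that of the chaperone genes (rho = 0.61, r = 0.66 without 2 arrays), of 0.58 with that of partners, of 0.51 with that of ubiquitin and its enzymes, of 0.29 with that of mitochondrial ribosomal proteins and of -0.18 with that of cytosolic ones. All of these values share the centring and the dyes of their array, and whether the correlations differ was not tested.

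In TD against D(wg) cells, chaperone genes were higher in 6 of 19 cases and lower in 0, where 10.8% of all genes were higher, with Hsp83 at 1.95, the chaperonin genes CCT6 at 1.62 and CCT2 at 1.34, and the mitochondrial chaperone gene Hsp60A at 1.23. Of 14 proteasome partners 3 were higher, p47 (0.85), a cofactor of the unfoldase TER94, Rad23 (0.82), which carries ubiquitinated proteins to the proteasome, and Uch-L5 (0.68), a deubiquitinase bound to it. The partner cnc, whose protein activates proteasome genes, was lower, at -1.03. Of 25 genes of ubiquitin and its enzymes 6 were higher, such as the conjugating enzyme genes eff (1.22) and Ubc4 (0.72), and 5 were lower, such as Cul1 (-0.97) and Uba1 (-0.77). Of 5 tested muscle and myoblast markers zfh1 was lower, at -0.56, and 0 were higher in this comparison, and the 2 fat body markers and 1 haemocyte marker tested did not pass; their part in the subunit values was not tested. Against V(wg) cells the muscle marker zfh1 was lower at -0.58, and Him (-0.37), Mlc2 (0.77) and twi (0.05) did not pass. The germline marker vas was higher at 0.78, and bam (0.36) did not pass. Rad23 was higher at 0.81 (adjusted p = 0.00754) and maf-S, which encodes the partner of Cnc, was lower at -0.55 (adjusted p = 0.0191). Of all genes tested against V(wg), 6.96% were higher and 6.98% lower.

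Where a gene had several probes they did not always give the same ratio. Further probes of Prosalpha1 and Rpt4 each followed the main probe over the arrays (r = 0.94), and those of Prosalpha2 did so with r from 0.70 to 0.90. The 2 further probes of Rpn6 ran against the main one, with r of -0.50 over 25 arrays and -0.42 over 18, and they passed the test 4 times with a sign opposite to the main probe. One gave -0.82 in wild-type discs (adjusted p = 0.00139), -0.86 in Wg-expressing discs (adjusted p = 5.56e-05) and 0.95 in TD against D(wg) cells (adjusted p = 0.00101), and the other -0.52 in wild-type discs (adjusted p = 0.0337). The main probe gave 0.37, 0.22 and -0.20 in these 3 comparisons and did not pass. The values of Rpn6, and with them the counts of called subunits in these 3 comparisons, therefore depend on the probe. In the fragments only the main probe of Rpn6 was tested. A further probe of Rpn9 had r of -0.54 over 9 arrays, and one of Prosalpha6T had r of 0.36 over 12.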

How the data were processed

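The authors deposited 1 log ratio per probe and array, which the labels give as second-named over first-named sample; that the deposited values are log2 was taken from their range. Their filtering and normalisation are not stated in the sources used here, and spot intensities were not used. Ratios were turned so that positive means more in the first-named sample and centred on each array's median. Probes were matched to genes through CG numbers in a RefSeq table, and a gene with several probes is represented by the one measured on most arrays. Arrays were grouped by the comparison named in their labels. A least-squares model with 11 coefficients and a dye term was fitted to each probe over the 39 arrays, and variances were moderated with limma 3.58.1 (R 4.3.3; prior degrees of freedom 3.57, prior SD 0.2793), for 16 comparisons. Testing required values on 66.7 percent, and on no fewer than 2, of the arrays in every category involved. Two-sided p-values were adjusted by Benjamini-Hochberg over all probes tested in a comparison, and called at 0.05; shares of genes called count 1 probe per gene. The model was solved directly, not with lmFit as planned, because of missing values, and was tested on simulated data. Tables came from pandas 2.3.3 and numpy 2.4.6 under Python 3.11.15, and plots from matplotlib 3.10.9.

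Named are all called members where there are at most 8, otherwise the 4 most changed with a value and the same sign on every array, and a panel of 10 genes with members of each subassembly, whatever their values. Further called genes were named with their values in view. The members and lists were chosen with earlier results of these data known. Alternatives were no centring, equal spread between arrays, averaged probes, a value on every array, the arrays of a comparison alone, each slide series alone and each array left out. Centring on probes measured on all 39 arrays was added after seeing the data.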

Additional observations from a re-analysis of the deposited data

Results flagged for a closer look

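Among 65 sets of array values examined for an array far from the rest, 5 stood out, and chance alone gives about 1 in 20. In wing against leg discs, Prosalpha4T2 was at -0.02 on array 3 against 0.32 to 0.52 on the others, and Rpn1 was at -0.92 on array 1 against -0.24 to 0.12. In TD against V(wg) cells, Rpt1 was at 2.67 on array 1 against 0.10 to 0.61. In the regenerating fragments, the median of the standard subunits was -0.79 on array 2 against -0.39 to -0.35, and Prosbeta2 was at -0.10 on array 3 against -0.89 to -0.78.

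The ratio to the shared reference differed between categories, by a contrast in the same fit. Regenerating fragments differed from wild-type first leg discs in 14 subunit genes, with -1.52 for Rpn10, -1.32 for Rpn11, -1.29 for Prosbeta5 and -1.13 for Rpt6. Wg-expressing discs differed from the fragments in 19 subunit genes, with 1.66 for Rpn10, 1.66 for Rpt6, 1.59 for Rpn11 and 1.42 for Prosalpha1.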

How the results depend on the processing

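Single genes were followed through the alternatives only where the naming rule or the panel held them, which left out some called genes. No called gene among those followed reversed its direction. The counts below are of subunit genes called. Without centring, the count for wing against leg was 0 and for TD against D(wt) 1. With arrays scaled to equal spread it was 2 for the wild-type leg against the reference, 1 for TD against D(wt), 10 for the fragments against the reference, 3 for fragments minus wild type and 12 for Wg-expressing minus fragments, and the medians were -0.40 for the fragments and -0.37 for fragments minus wild type. With a value required on every array the wing against leg count was 0, and on slide series 5 alone or 6 alone it was 0. With the arrays of a comparison fitted alone and no dye term, the count was 0 for wing against leg, 0 for wild type, 7 for TD against D(wg), 0 for TD against V(wg), 4 for TD against D(wt), 6 for the fragments and 2 for fragments minus wild type. Centred on the 1882 probes measured on all 39 arrays, which moved arrays by -0.31 to 0.33, the count was 8 for TD against V(wg), 1 for TD against D(wt), 2 for Wg-expressing minus wild type, 5 (1 higher, 4 lower, in place of 4 and 2) for wild type against the reference and 9 (1 higher, 8 lower) for fragments minus wild type, with medians of -0.20 for TD against D(wt) and -0.44 for fragments minus wild type. The cause of these changes was not tested.

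With each array left out in turn, the count was 0 to 7 for wild type, 3 to 7 for Wg-expressing discs, 15 to 22 for fragments, 0 to 1 for wing against leg, 1 to 9 for TD against D(wg), 0 to 9 for TD against V(wg), 0 to 1 for TD against D(wt), 0 to 3 for Wg-expressing minus wild type, 11 to 16 for fragments minus wild type, 15 to 20 for Wg-expressing minus fragments and 0 to 0 for both dorsal-ventral comparisons, their difference and the 3 segment pairings. No paired analysis was possible because the array numbers were given in accession order and do not link arrays of different categories. Signal over background is unknown, which limits the weakly measured paralogs.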
